A study of Homo sapiens with 12 samples.

Results

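The genes described are 10 of the 36762 gene symbols in each of the study's 2 count tables, chosen by name as genes of meiosis and of later germ cell development: DAZL, DDX4, SYCP1, SYCP2, SYCP3, SYCE1, STAG3, HORMAD1, TEX14 and TEX15. All 10 were present in both tables. They were measured by bulk RNA sequencing in lines of UCLA1, an established human embryonic stem cell (hESC) line, and in incipient mesoderm-like cells (iMeLC), the intermediate made from hESC on the way to primordial germ cell-like cells. The lines labelled Control (CTRL) were CTRL1101, CTRL1106 and CTRL1109, and the lines labelled TET1 catalytic domain knockout (CDKO) were CDKO1102, CDKO1105 and CDKO1312. Each was profiled at both stages, which gave 4 groups of 3 libraries and 12 libraries in all. No other allele or agent is given for any group, and the labels do not say whether each line is a single clone. The iMeLC libraries are named by line, while the hESC libraries carry only a genotype and a number from 1 to 3 and were assigned to a group but to no line. Library values are given below in the order 1, 2, 3 for hESC, in the order CTRL1101, CTRL1106, CTRL1109 for CTRL iMeLC and in the order CDKO1102, CDKO1105, CDKO1312 for CDKO iMeLC. The labels do not say that the cultures were grown separately, so p-values measure only the spread between these libraries.

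Germ cells leave the mitotic cycle and enter meiosis, in which homologous chromosomes pair, exchange DNA and separate. Pairing rests on the synaptonemal complex, a protein ladder whose side rails are laid down on cohesin-bound chromosome axes. In cells outside the germ line many of these genes are held silent, often with methylated CpG sites at the promoter, and TET1 is an enzyme that oxidises 5-methylcytosine, the first step by which such methylation can be removed. The comparisons asked at which level these genes were transcribed before germ cell fate and whether loss of the TET1 catalytic domain altered it.

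Most of the 10 genes were barely transcribed. A gene was called near zero in a group when its mean was under 0.1 CPM (the usual CPM unit of read counts scaled to a common depth, here with the library sizes of the fit within that stage) and low from 0.1 to 1 CPM. In CTRL hESC 2 genes were near zero, 4 low and 4 above 1 CPM, and in CDKO hESC 1, 5 and 4. In CTRL iMeLC 3 were near zero, 4 low and 3 above 1 CPM, and in CDKO iMeLC 5, 3 and 2. TEX15 was the exception, at 32.4 to 50.8 CPM in the group means. No gene of the 10 passed edgeR's test of CDKO against CTRL at either stage with the filter on low counts. DESeq2 called DAZL and STAG3 in hESC and STAG3 in iMeLC, and edgeR with no filter called DAZL and STAG3 in hESC (adjusted p = 0.00672 and 0.00166). Both settings also called more genes over all than edgeR with the filter. In bulk samples fewer expressing cells and less RNA per cell cannot be told apart. The smallest adjusted p were those of the RNA-binding protein gene DAZL in hESC (0.133), with a higher mean in CDKO, and of the meiotic cohesin gene STAG3 (0.141 in hESC and 0.154 in iMeLC), with a lower mean in CDKO.

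Promoter sequences are shown for 4 genes whose CTRL and CDKO libraries did not overlap at one stage, picked after their values were seen: SYCP1, SYCP3 and STAG3, whose scaled counts were lower in every CDKO iMeLC library than in any CTRL iMeLC library, and DAZL, higher in every CDKO hESC library than in any CTRL hESC library. Each is the part of the 250 bases before a RefSeq transcription start (GRCh38.p14) that overlaps no exon GENCODE release 29 gives the gene, written 5′ to 3′ along the gene's own strand. The DAZL stretch lies inside the span of the gene, since a GENCODE transcript starts further upstream, and the others lie before it. Capitals mark CpG dinucleotides, the sites at which DNA is methylated.
SYCP1, chr1:114854613-114854802, plus strand: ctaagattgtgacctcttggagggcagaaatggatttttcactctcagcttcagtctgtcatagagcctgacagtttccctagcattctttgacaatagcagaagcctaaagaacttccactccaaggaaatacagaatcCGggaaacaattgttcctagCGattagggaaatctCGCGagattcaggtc
SYCP3, chr12:101739473-101739712, minus strand: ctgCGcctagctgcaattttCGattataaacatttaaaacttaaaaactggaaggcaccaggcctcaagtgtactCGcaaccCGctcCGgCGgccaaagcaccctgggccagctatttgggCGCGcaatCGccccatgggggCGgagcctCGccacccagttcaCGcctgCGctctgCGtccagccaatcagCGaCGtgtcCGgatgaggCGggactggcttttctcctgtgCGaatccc
STAG3, chr7:100177474-100177562, plus strand: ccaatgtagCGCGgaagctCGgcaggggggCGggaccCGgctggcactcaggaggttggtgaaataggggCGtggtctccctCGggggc
DAZL, chr3:16604791-16605040, minus strand: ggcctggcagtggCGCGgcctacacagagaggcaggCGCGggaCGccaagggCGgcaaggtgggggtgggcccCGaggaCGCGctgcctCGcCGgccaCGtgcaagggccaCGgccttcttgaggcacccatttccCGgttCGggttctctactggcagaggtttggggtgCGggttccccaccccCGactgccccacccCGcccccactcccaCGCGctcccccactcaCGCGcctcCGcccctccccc
The stretch before SYCP1 held 4 CpG in 190 bases, that before SYCP3 19 in 240, that before STAG3 7 in 89 and that shown for DAZL 23 in 250. The DAZL stretch shown belongs to the second of 2 RefSeq starts. The stretch of the first (chr3:16605500-16605673) held 19 CpG in 174 bases and is not shown.

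RefSeq windows were found for 7 of the 10 genes (10 windows, since DAZL, STAG3 and SYCE1 have more than one start). HORMAD1, TEX14 and TEX15 had none in the table used. Over the full 250 bases the CpG number was 8 for SYCP1, 19 for SYCP3, 33 for SYCP2, 14 and 24 for STAG3, 22 and 29 for SYCE1 and 28 and 23 for DAZL, against a median of 11 (quartiles 3 and 23) over 35104 windows of other genes. The DDX4 window held 0, but it begins at 55766635, downstream of the first GENCODE start of the gene at 55738017. The 2 short motifs CACGTG and GCGGGAA were searched on both strands, because complexes with E2F6 and with MGA and MAX are known to bind and silence germ cell gene promoters. CACGTG, which reads the same on both strands, was present in windows of DAZL, STAG3 and SYCE1 (3 of 7 genes, 3 of 10 windows), against 6.35% of 35114 windows. GCGGGAA was present in windows of SYCP2, STAG3 and SYCE1 (3 of 7 genes, 4 of 10 windows), against 5.52%. The STAG3 window with matches lies wholly in GENCODE exons of STAG3 (250 bases). Both SYCE1 windows lie inside the span of SYCE1, and the first shares 192 bases with its exons. The matches of the motifs shared 0 bases within any window. The second STAG3 window and the second SYCE1 window held both, while the SYCP1 and SYCP3 windows held neither. Both motifs contain a CpG, and the windows that held them had 22 to 33 CpG, against the median of 11. The shares of other windows are per window and were not matched for CpG number. These are matches of letters in a short window and were not measured as binding sites.

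Library totals were 12517593 to 18855099 counts in hESC and 52121702 to 109479071 in iMeLC. A summed count of 0 therefore allowed up to 0.0566 to 0.0625 CPM in hESC and 0.0101 to 0.0135 CPM in iMeLC, by the limit of 3 counts. Such limits and all intervals on counts cover counting error only. The 8 markers of pluripotent stem cells were counted in every group and summed to 8811 to 10493 CPM in hESC and 4332 to 4945 CPM in iMeLC. Of the 6 primitive streak markers the sum was 26.6 to 208 CPM in hESC and 177 to 864 CPM in iMeLC. TET1 itself stood at 350 ± 27.8 CPM (SD, n = 3) in CTRL hESC, 417 ± 35.6 in CDKO hESC, 270 ± 16.8 in CTRL iMeLC and 288 ± 20.8 in CDKO iMeLC (adjusted p = 0.209 in hESC and 0.577 in iMeLC, edgeR), and a total over the whole gene does not separate the exons of the deleted domain.

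DAZL and DDX4 are RNA-binding proteins of the germ line: DAZL binds the 3′ ends of germ cell messages and promotes their translation, and DDX4 (VASA) is an RNA helicase of germ granules. DAZL (ENSG00000092345, GRCh38 chromosome 3, 16586792 to 16670306, minus strand) had 34, 51 and 60 counts in the CTRL hESC libraries, against 87, 112 and 59 in the CDKO hESC libraries. Scaled, the CTRL values were 2.09, 2.89 and 3.11 CPM, and the CDKO values 7.1, 6.17 and 3.41 CPM. Every CDKO hESC library was above every CTRL library, but CDKO hESC 3 exceeded CTRL hESC 3 only slightly. The log2 fold change of DAZL was 1.03 (SE 0.29, 95% interval 0.37 to 1.69), and it missed the threshold in edgeR's quasi-likelihood test (adjusted p = 0.133, exact permutation p = 0.1, the smallest that 3 against 3 libraries allow). CDKO hESC 3 also held a summed 566 CPM of the 6 definitive endoderm markers, against 19.6 to 85.4 CPM in the other hESC libraries. Its part in the DAZL level was not tested.

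In iMeLC the DAZL libraries split along a different line. The CTRL libraries held 0.364, 2.32 and 0.169 CPM (35, 223 and 19 counts), whereas the CDKO libraries held 0.947, 1.12 and 0.906 CPM (48, 98 and 71 counts). The 3 CDKO libraries lay close together between CTRL1106 and the remaining CTRL libraries. The log2 fold change was 0.07 (95% interval -1.88 to 2.01, adjusted p = 0.972, edgeR). CTRL1106 decided it: without this library the value was 1.9 and still not called. CTRL1106 also had the lowest sums of the primitive streak markers (177 CPM, against 535 to 864 in the other iMeLC libraries) and of the definitive endoderm markers (40.8 CPM, against 205 to 1382), and their part in its DAZL level was not tested.

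DDX4 (ENSG00000152670, chromosome 5, 55738017 to 55817157, plus strand) was near zero in iMeLC and low in hESC. Its CTRL hESC libraries had 1, 3 and 2 counts and its CDKO hESC libraries 3, 4 and 4, which is 0.112 ± 0.0546 and 0.232 ± 0.0124 CPM (SD, n = 3). In iMeLC it had 2 counts, both in CTRL1106, and 0 in the CDKO libraries. It was too low to enter the test at either stage.

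STAG3, a subunit of the cohesin rings that hold sister chromatids together along the meiotic axis, had a lower mean in CDKO at both stages but did not pass the test at either. STAG3 (ENSG00000066923, chromosome 7, 100177563 to 100221488, plus strand) gave 3.69, 8.66 and 7.52 CPM for CTRL hESC, against 3.02, 3.86 and 2.72 CPM for CDKO hESC. The groups overlapped through CTRL hESC 1, which was below CDKO hESC 2. The iMeLC values of STAG3 were 1.14, 3.26 and 2.28 CPM for CTRL, against 0.809, 1.01 and 0.753 CPM for CDKO. Every CDKO iMeLC library was below every CTRL iMeLC library. The log2 fold change was -1.05 in hESC (SE 0.31, 95% interval -1.74 to -0.36, adjusted p = 0.141, edgeR) and -1.37 in iMeLC (SE 0.41, 95% interval -2.32 to -0.43, adjusted p = 0.154). In hESC it passed without CTRL hESC 1 (-1.34, adjusted p = 0.043) and in iMeLC without CTRL1101 (-1.68, adjusted p = 0.0197). With DESeq2 it passed at both stages (adjusted p = 0.0349 and 0.0256). The STAG3 count is uncertain where genes overlap: 18.7% of its exon bases are shared with PVRIG on the same strand and 13.6% with CASTOR3 on the opposite strand, and 5 annotated pseudogenes on chromosome 7 carry its name (STAG3L1 to STAG3L4 and STAG3L5P).

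HORMAD1, a protein of unpaired chromosome axes that helps to form and monitor meiotic DNA breaks, was at the edge of detection. HORMAD1 (ENSG00000143452, chromosome 1, 150698060 to 150720888, minus strand) had 0, 3 and 4 counts in the CTRL hESC libraries, against 0, 3 and 2 in the CDKO ones. The deeper iMeLC libraries held 7, 18 and 9 counts for CTRL, against 0, 0 and 4 for CDKO. All CTRL iMeLC libraries, at 0.0729 to 0.187 CPM, were above all CDKO iMeLC libraries, at 0 to 0.051 CPM. Summed over the group the CTRL to CDKO ratio was 6.31 (95% counting interval 2.25 to 24.5). It did not enter the test, and with no filter on low counts it had an adjusted p of 0.418 (edgeR).

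The synaptonemal complex genes were near zero or low in every group. SYCP1 builds the transverse filaments that bridge the paired axes. SYCP1 (ENSG00000198765, chromosome 1, 114854803 to 114995370, plus strand) had 4, 13 and 1 counts in the CTRL hESC libraries, against 0, 6 and 1 in the CDKO ones, and the groups overlapped. The CTRL iMeLC libraries had 9, 16 and 10 counts, or 0.116 ± 0.0435 CPM (SD, n = 3), and every CDKO iMeLC library had 0. Over the CTRL iMeLC libraries SYCP1 stood at 8.67-fold the limit of 3 counts over the CDKO iMeLC group. The CTRL counts carry their own counting error, so this fold is not a minimum. With so few counts SYCP1 did not enter the test, and with no filter the adjusted p was 0.114 (edgeR).

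SYCP2 and SYCP3 form the axial elements, the side rails of the ladder. SYCP3 (ENSG00000139351, chromosome 12, 101728648 to 101739472, minus strand) had 15, 14 and 18 counts in the CTRL iMeLC libraries, against 3, 0 and 6 in the CDKO ones. These are 0.154 ± 0.00731 and 0.0452 ± 0.0401 CPM (SD, n = 3) and the groups did not overlap, yet the log2 fold change of -1.79 had a wide interval (-3.94 to 0.35, adjusted p = 0.322, edgeR). The hESC counts of SYCP3 were 9, 1 and 6 for CTRL, against 5, 9 and 5 for CDKO, and the groups overlapped. SYCP3 shares 14.8% of its exon bases with CHPT1 on the opposite strand.

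SYCP2 (ENSG00000196074, chromosome 20, 59863563 to 59933655, minus strand) varied widely between lines of the same genotype. Its iMeLC counts were 14, 2 and 0 for CTRL, against 18, 0 and 22 for CDKO, so each genotype had a library at 0 and another at 14 or more counts. Its log2 fold change in iMeLC was 1.9 (95% interval -1.54 to 5.33, adjusted p = 0.501, edgeR). In hESC the counts were 2, 1 and 1 for CTRL, against 4, 9 and 3 for CDKO, with no overlap. Summed, that is a CTRL to CDKO ratio of 0.227 (95% counting interval 0.0551 to 0.703), and with no filter the adjusted p was 0.396 (edgeR).

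SYCE1 belongs to the central element of the complex. SYCE1 (ENSG00000171772, chromosome 10, 133553901 to 133569835, minus strand) had 0, 3 and 0 counts in the CTRL hESC libraries, against 3, 4 and 3 in the CDKO ones. In iMeLC it had 2 counts in each genotype, all in a single library (CTRL1101 and CDKO1105). Even these few reads are uncertain, since 53.3% of its exon bases lie opposite exons of CYP2E1.

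TEX14 and TEX15 were the only members with a mean above 1 CPM in each of the 4 groups. TEX14 is a protein of the intercellular bridges that join dividing germ cells, and TEX15 acts in meiotic recombination and in piRNA-guided silencing. TEX14 (ENSG00000121101, chromosome 17, 58556678 to 58692055, minus strand) gave 2.09, 2.26 and 1.56 CPM for CTRL hESC, against 2.29, 2.59 and 1.68 CPM for CDKO hESC. Its iMeLC values were 1.75, 1.01 and 0.851 CPM for CTRL, against 0.947, 1.05 and 1.48 CPM for CDKO. The groups overlapped at both stages, and the log2 fold changes were 0.15 (95% interval -0.48 to 0.78, adjusted p = 0.831, edgeR) and -0.05 (-0.91 to 0.81, adjusted p = 0.952).

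TEX15 (ENSG00000133863, chromosome 8, 30831544 to 30913003, minus strand) had the narrowest intervals of the tested members. The CTRL hESC values were 52.1, 49.4 and 41.5 CPM, against 57.5, 52.4 and 42.5 CPM for CDKO hESC. The CTRL iMeLC values were 37.3, 39.7 and 31.4 CPM, against 33.3, 33.4 and 30.4 CPM for CDKO iMeLC. The groups overlapped at each stage. The log2 fold change was 0.09 in hESC (95% interval -0.19 to 0.37, adjusted p = 0.762, edgeR) and -0.16 in iMeLC (95% interval -0.42 to 0.1, adjusted p = 0.46), so the intervals held no change of 2-fold in either direction.

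**Figure D1:**
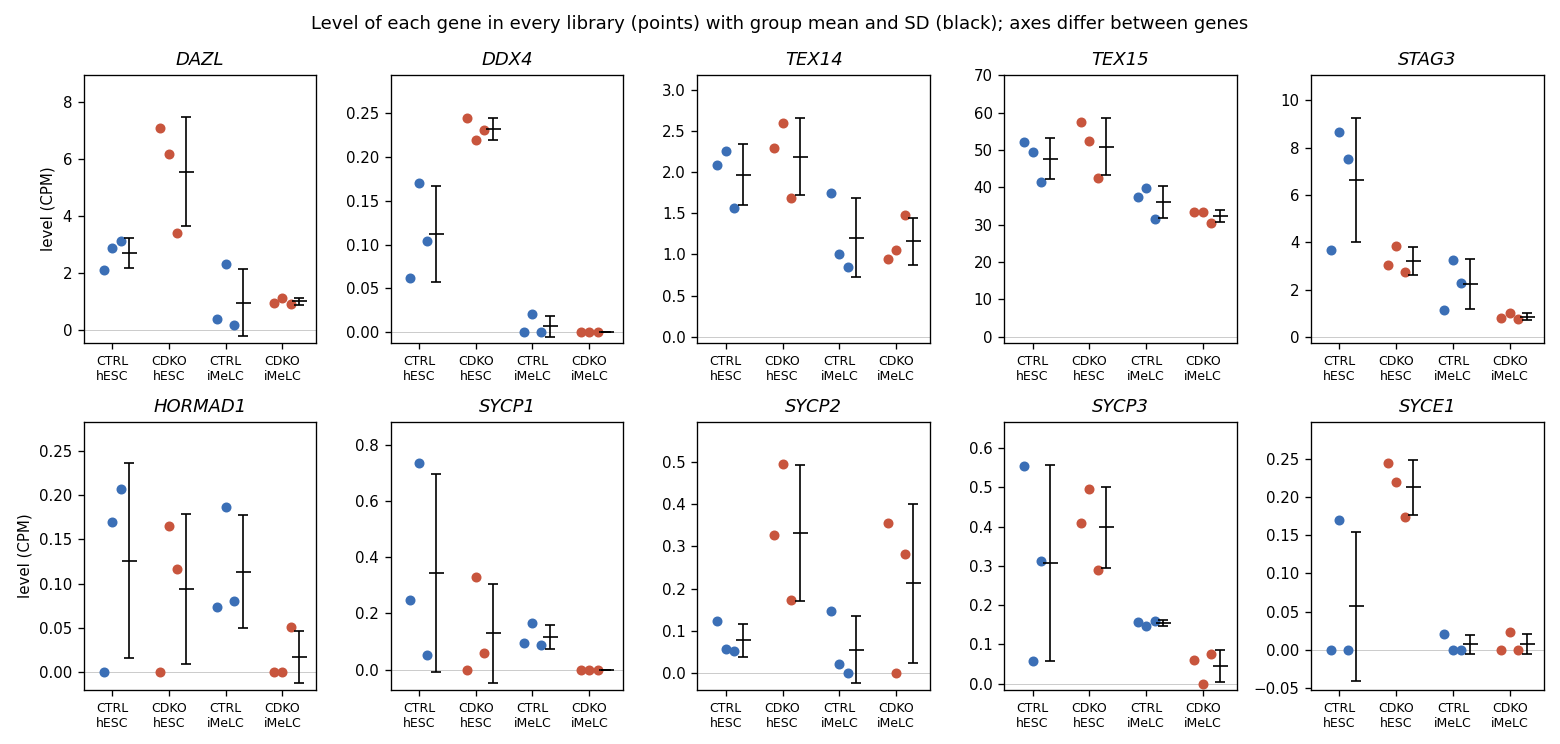
Level of each of the 10 genes in every library, in CPM scaled within each stage (points, blue for CTRL and red for CDKO), with the group mean and SD in black; each gene has its own linear axis. TEX15 lies at 30.4 to 57.5 CPM, whereas SYCP1 and DDX4 are at 0 in all 3 CDKO iMeLC libraries and DAZL is highest in CDKO hESC 1.

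Per kilobase of annotated exon, which allows genes to be compared, TEX15 came first in each group, at 4.02 ± 0.464 CPM per kb (SD, n = 3) in CTRL hESC, 4.28 ± 0.643 in CDKO hESC, 3.05 ± 0.36 in CTRL iMeLC and 2.73 ± 0.144 in CDKO iMeLC. Its lowest library was above the highest of the next gene in each of the 4 groups. In CTRL hESC STAG3 (0.772 ± 0.303 CPM per kb) and DAZL (0.743 ± 0.148) came next and overlapped, followed by TEX14 (0.37 ± 0.0686). In CDKO hESC DAZL (1.53 ± 0.529) lay above TEX14 (0.411 ± 0.0871) and STAG3 (0.373 ± 0.0688), which overlapped. In CTRL iMeLC DAZL (0.262 ± 0.328), STAG3 (0.259 ± 0.124) and TEX14 (0.226 ± 0.0901) could not be told apart. In CDKO iMeLC DAZL (0.273 ± 0.0313) and TEX14 (0.218 ± 0.0531) overlapped and STAG3 (0.0999 ± 0.0157) lay below both. The remaining 6 genes, the synaptonemal complex genes with HORMAD1 and DDX4, were at most 0.104 CPM per kb in any group mean, and neighbours among them overlapped except SYCP3 over DDX4 in CDKO hESC.

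Across the set, the CDKO against CTRL comparison in hESC tested 4 of the 10 genes (DAZL, STAG3, TEX14 and TEX15), and the other 6 fell below the filter on low counts. None was called by edgeR, where 1.31% of 17222 tested genes were (0.598% higher and 0.714% lower in CDKO). At an unadjusted p under 0.05 (edgeR) there were 2, DAZL and STAG3, where 2777 of all 17222 tested genes were. DESeq2 called the same 2 (adjusted p = 0.0409 and 0.0349). In iMeLC 6 of the 10 were tested, with SYCP2 and SYCP3 added. None was called by edgeR, where 0.345% of 19999 tested genes were (0.08% higher and 0.265% lower in CDKO). STAG3 alone had an unadjusted p under 0.05, where 3952 of all 19999 tested genes had, and it alone was called by DESeq2. These edgeR shares are also the background for edgeR calls among the gene lists and cell type markers below. DESeq2 called more genes over all than edgeR at both stages, so these shares are no background for its calls. The totals of DESeq2 over all genes are given with the processing. The median log2 fold change of the tested members was 0.12 in hESC and -0.104 in iMeLC, against -0.002 and -0.028 over all genes tested. These medians leave out the members too low to test, and SYCP3, at 0 in CDKO1105, could not have passed the filter on its CDKO iMeLC libraries alone.

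Counted over all 10 genes, the direction of separation differed between the stages. In hESC 4 genes (DAZL, DDX4, SYCP2 and SYCE1) had every CDKO library above every CTRL library and 0 had the reverse, where 8.53% and 6.77% of all genes with a count did so. In iMeLC 0 had every CDKO library above and 4 (SYCP1, SYCP3, STAG3 and HORMAD1) had every CDKO library below, where 8.56% and 10.7% of all genes with a count did so. Among the genes passing the filter, 22.1% in hESC and 26.1% in iMeLC had groups without overlap in either direction. For 6 of the 8 separated members neither group summed to more than 47 counts. The interaction of genotype and stage compares the CDKO against CTRL difference in iMeLC with that in hESC, and it was tested for the same 6 genes as in iMeLC. None passed by edgeR, with 0 at an unadjusted p under 0.05 and 0 by DESeq2, where 0.0197% of 20262 genes were called (0.0148% higher and 0.00494% lower). Its largest value among the 6 was -2.12 for SYCP3 (SE 1.19, adjusted p = 0.531). Of the 8 separated members, DDX4, SYCP1, SYCE1 and HORMAD1 were too low for this test. A CDKO against CTRL difference that changed between the stages was therefore shown for none of the 8.

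**Figure D2:**
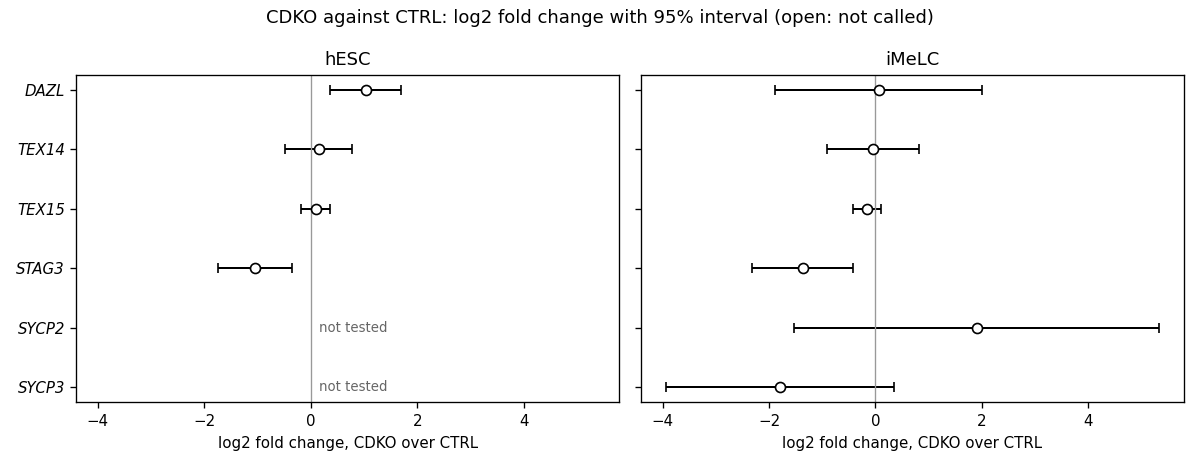
Log2 fold change of CDKO over CTRL with its 95% interval for the members that could be tested, in hESC (left) and iMeLC (right); open circles were not called. STAG3 lies below 0 at both stages (-1.05 and -1.37), DAZL at 1.03 in hESC and 0.07 in iMeLC, and SYCP2 and SYCP3 have the widest intervals.

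From hESC to iMeLC, all 6 testable genes had negative log2 fold changes in both genotypes, and STAG3 was called in both. These fits cover all 12 libraries, and their CPM differ slightly from those within a stage. Each stage has its own table and its own range of depth, and these cannot be told apart from the effect of stage. In CTRL 1 of the 6 was called lower, where 19.9% of tested genes were lower and 29.5% higher (49.4% in all). In CDKO 3 of the 6 were called lower, where 27.7% were lower and 32.1% higher (59.8% in all). SYCP3, among the 6 and the 3, passed the filter on low counts only through hESC, so it adds no weight to these counts. STAG3 fell from 5.89 to 2.47 CPM in CTRL (log2 fold change -1.25, SE 0.37, adjusted p = 0.0138, edgeR) and from 2.83 to 0.975 CPM in CDKO (-1.53, SE 0.4, adjusted p = 0.00494). The CTRL call was lost without CTRL hESC 2 (adjusted p = 0.0729) or CTRL hESC 3 (0.0547).

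DAZL fell from 4.92 to 1.13 CPM in CDKO (-2.11, SE 0.7, adjusted p = 0.0195, edgeR). In CTRL it went from 2.4 to 1.06 CPM (-1.18, SE 0.69, adjusted p = 0.175), and CTRL1106 decided this, since without it the value was -3.07 (adjusted p = 7.39e-05). The DAZL call in CDKO was lost without CDKO hESC 1 (adjusted p = 0.0585), CDKO hESC 2 (0.0506) or CDKO1312 (0.0514). SYCP3 fell in CDKO from 0.352 to 0.0512 CPM (-2.78, SE 0.9, adjusted p = 0.0173, edgeR), a call lost without CDKO hESC 2 (0.0743). In CTRL it went from 0.273 to 0.171 CPM (-0.65, adjusted p = 0.523). SYCP3 held at most 0.16 CPM in any iMeLC library, scaled within that stage, and passed the filter on low counts through its hESC libraries. Its sign and call therefore carry no weight as evidence of a direction. TEX15 stood at 42.5 and 40.3 CPM in CTRL (-0.08, adjusted p = 0.659) and 44.9 and 36.8 CPM in CDKO (-0.29, adjusted p = 0.0776), and DESeq2 called the latter (adjusted p = 0.0416). TEX14 had values of -0.38 (adjusted p = 0.36) and -0.54 (adjusted p = 0.179).

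Among the genes too low for that test, DDX4 and SYCP1 had 0 counts in CDKO iMeLC. In CDKO hESC DDX4 (11 counts) stood at 16.9-fold and SYCP1 (7 counts) at 10.8-fold the limit of 3 counts over that group. The hESC counts carry their own counting error, so these folds are not minima. With no filter both genes were called lower in CDKO iMeLC than in CDKO hESC by edgeR (adjusted p = 0.00705 and 0.0111). In CTRL the summed hESC to iMeLC ratio was 16.9 for DDX4 (6 against 2 counts, 95% counting interval 3.02 to 171) and 2.89 for SYCP1 (18 against 35 counts, 1.54 to 5.25), with adjusted p of 0.107 and 0.429 with no filter. For HORMAD1 the ratio was 1.16 in CTRL (7 against 34 counts, 0.433 to 2.65) and 5.76 in CDKO (5 against 4 counts, 1.24 to 29). For SYCE1 it was 8.44 in CTRL (3 against 2 counts, 0.967 to 101) and 23 in CDKO (10 against 2 counts, 4.91 to 216). With no filter neither was called by edgeR (HORMAD1 adjusted p = 0.958 in CTRL and 0.277 in CDKO, SYCE1 0.324 and 0.0741). The ratios and limits are scaled by total counts, whereas the fit uses TMM. In CTRL the fit with no filter gave log2 fold changes of -3.29 for DDX4, -1.17 for SYCP1, -2.34 for SYCE1 and 0.2 for HORMAD1. For HORMAD1 in CTRL the ratio and the fit thus pointed in opposite directions.

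**Figure D3:**
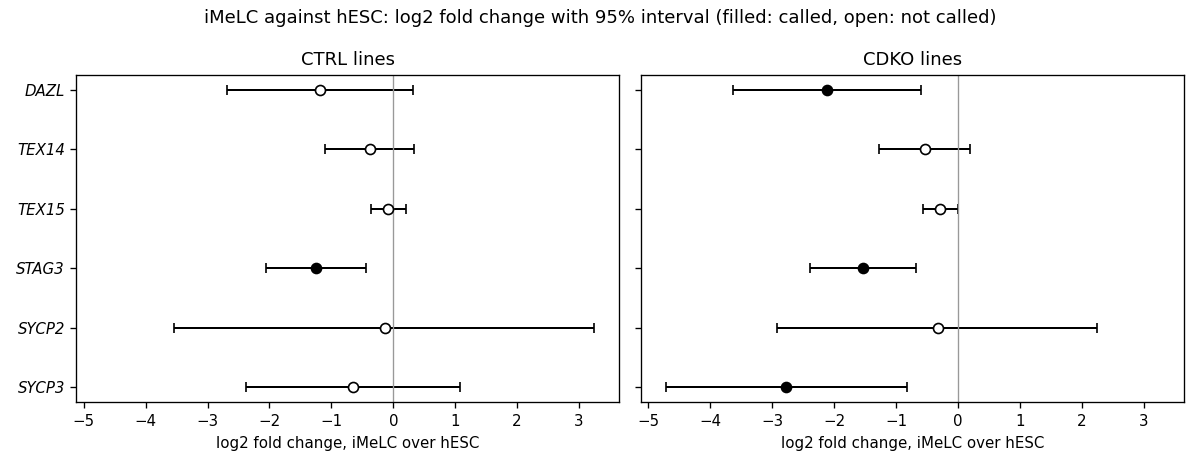
Log2 fold change of iMeLC over hESC with its 95% interval for the 6 testable members, in CTRL lines (left) and CDKO lines (right); filled circles were called. All points lie below 0. STAG3 is called in both panels (-1.25 and -1.53), DAZL (-2.11) and SYCP3 (-2.78) in CDKO. SYCP3 passed the filter on low counts only through hESC.

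Other genes of the same pathways gave a wider view. Of the 37 further meiotic genes found by symbol, 15 could be tested in hESC, of which 1 was called higher in CDKO and 0 lower. That gene was RNF212, which encodes a protein that stabilises crossover sites. The CTRL hESC values of RNF212 were 1.6, 2.32 and 2.64 CPM, against 6.61, 9.14 and 7.64 CPM for CDKO hESC, with no overlap. The log2 fold change of RNF212 was 1.83 (SE 0.23, adjusted p = 0.0146, edgeR), a call lost without CDKO hESC 2 (1.7, adjusted p = 0.092). The median of the 15 was -0.032, against -0.002 over all genes tested.

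In iMeLC 21 of these meiotic genes could be tested and 0 were called by edgeR, with 6 at an unadjusted p under 0.05 and 3 by DESeq2. Their median log2 fold change was -0.277, against -0.028 over all genes tested. This median has no weight as evidence of a direction, since MEIOB and PRDM9 had CDKO libraries at 0 and could not have passed the filter without their CTRL libraries. The 4 with the smallest adjusted p all had negative log2 fold changes. REC8, the cohesin subunit that partners STAG3 on meiotic axes, stood at 33.1 ± 10.9 CPM in CTRL iMeLC and 16.5 ± 2.82 in CDKO iMeLC (SD, n = 3; log2 fold change -1, adjusted p = 0.126, edgeR). MEIOB, which binds single-stranded DNA during recombination, had 47, 72 and 101 counts in the CTRL iMeLC libraries, against 0, 10 and 0 in the CDKO ones (adjusted p = 0.13). PRDM9, the histone methyltransferase that places meiotic DNA breaks, had 52 counts over the CTRL iMeLC libraries and 2 over the CDKO ones, a ratio of 19.3 (95% counting interval 5.08 to 164, adjusted p = 0.128). C19orf57, a gene of the BRCA2-dependent recombination machinery, had a log2 fold change of -1.03 (adjusted p = 0.151).

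Of 31 later germ cell genes 8 could be tested in hESC, and 0 were called by edgeR, with 5 at an unadjusted p under 0.05 and 2 by DESeq2. Those with the smallest adjusted p were CPEB1, which regulates translation of stored messages (1.08, adjusted p = 0.0506), and 3 piRNA pathway genes, PIWIL2 (-1.78, adjusted p = 0.137), TDRD1 (-1.86, adjusted p = 0.209) and TDRKH (-0.29, adjusted p = 0.212). In iMeLC 15 could be tested and 2 were called lower, PIWIL2 (log2 fold change -4.14, adjusted p = 0.00227, edgeR) and TDRD1 (206 against 3 counts, ratio 51, 95% counting interval 17.2 to 249, adjusted p = 0.037). DESeq2 called 4 lower (PIWIL2, TDRD1, TDRD5 and TDRKH) and 1 higher, CPEB1. CPEB1 stood at 0.713 CPM in CTRL iMeLC and 2.53 CPM in CDKO iMeLC (1.83, adjusted p = 0.098, edgeR), and CPEB1, TDRD5 and TDRKH are named here after their values were seen. The TDRD1 call was lost without CTRL1109 or any single CDKO iMeLC library (adjusted p up to 0.173). The tested genes of the list had a median of -0.608 in hESC and -1.131 in iMeLC, against -0.002 and -0.028 over all genes tested. Both medians are set in part by the filter. In hESC the lowest CDKO libraries of TDRD1 and ZP3 stood at 0.0578 and 0.163 CPM, so these genes passed it through CTRL. In iMeLC TDRD1, TDRD5 and MAEL had CDKO libraries at 0 and passed it through CTRL. Both PIWIL2 and TDRD1 were known from earlier results on these libraries when the list was drawn up, so the list gives no independent evidence of a direction.

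The factors that are known to keep germ cell promoters silent were measured at 22 genes, among them the MGA, MAX and E2F6 complex, SETDB1 and the DNA methyltransferases. In hESC 0 of 21 tested were called by edgeR, with 0 at an unadjusted p under 0.05 and 0 by DESeq2. Those with the smallest adjusted p were DNMT1 (-0.19, adjusted p = 0.311), TRIM28 (0.2, 0.318), L3MBTL2 (0.14, 0.432) and RYBP (0.15, 0.443). In iMeLC 0 of 22 were called by edgeR, with 6 at an unadjusted p under 0.05 and 1 by DESeq2. These were led by DNMT3L, a cofactor of the de novo methyltransferases, at 0.174 CPM in CTRL and 0.614 CPM in CDKO (1.82, adjusted p = 0.136), followed by the Polycomb ring protein gene RNF2 (0.25, adjusted p = 0.167), RYBP (0.24, adjusted p = 0.205) and MAX (0.35, adjusted p = 0.234).

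**Figure D4:**
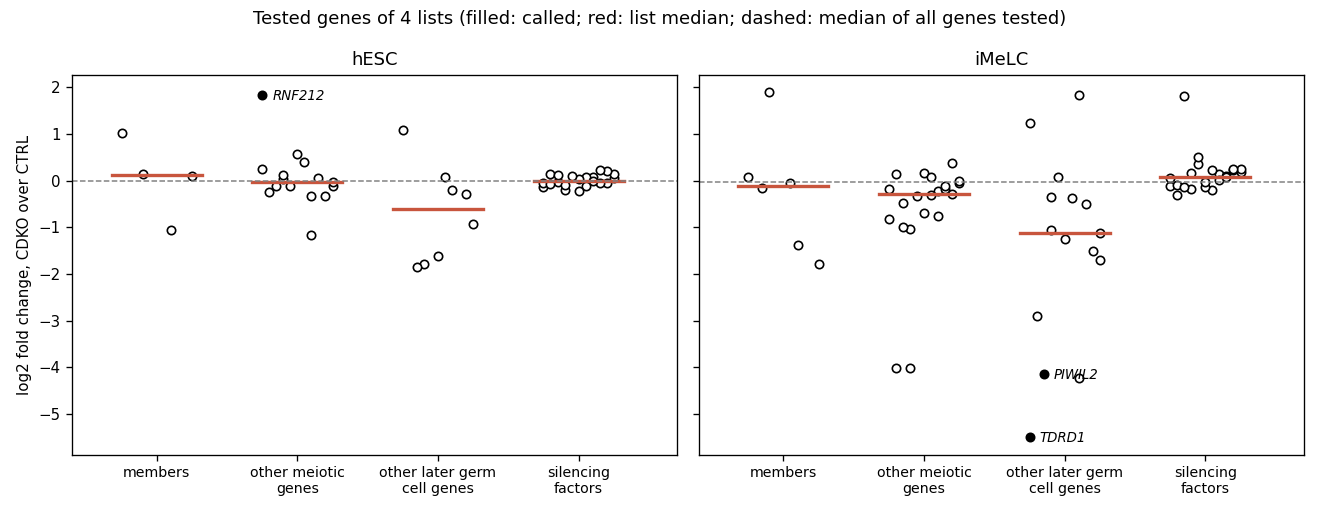
Log2 fold change of CDKO over CTRL for every tested gene of 4 lists in hESC (left) and iMeLC (right); red bars are medians of the tested genes and the dashed line is the median of all genes tested. Filled points, RNF212 in hESC and PIWIL2 and TDRD1 in iMeLC, were called. The tested later germ cell genes have medians of -0.608 and -1.131, both set in part by the filter on low counts.

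From hESC to iMeLC, 4 of 23 tested meiotic genes were called higher and 3 lower in CTRL, and 4 higher and 7 lower in CDKO. Of 17 tested later germ cell genes 0 were called higher and 3 lower in CTRL, and 0 higher and 6 lower in CDKO. Of all tested genes, 29.5% were called higher and 19.9% lower in CTRL, and 32.1% higher and 27.7% lower in CDKO. Among the genes called lower, SMC1B, PRDM9, TDRD6, TDRD9 and MOV10L1 held at most 0.229 CPM in any iMeLC library. They passed the filter on low counts through hESC, so the lower counts carry no weight as evidence of a direction.

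Markers of other cell types were summed in the same libraries. The 8 primordial germ cell markers, all counted in each group, summed to 101 to 118 CPM in CTRL hESC, 108 to 172 CPM in CDKO hESC, 91.9 to 134 CPM in CTRL iMeLC and 129 to 178 CPM in CDKO iMeLC. Of the 7 tested in iMeLC, 6 had positive log2 fold changes and 1 a negative one, with 0 called by edgeR. NANOS3, a germ cell RNA-binding protein, was too low to test and was at 0 to 0.259 CPM in the hESC libraries. In iMeLC its mean was lower in CDKO, unlike those 6, at 0.0936 to 0.302 CPM in CTRL and 0 to 0.102 CPM in CDKO. SOX17 stands in both this list and that of definitive endoderm. The definitive endoderm markers summed to 40.8 to 431 CPM in CTRL iMeLC and 622 to 1382 CPM in CDKO iMeLC, beside the lower SYCP1, SYCP3, STAG3 and HORMAD1 counts there, and 6 of 6 had positive log2 fold changes, with 4 at an unadjusted p under 0.05 and 0 called by edgeR. The 7 fibroblast or feeder markers summed to 461 to 937 CPM in CTRL iMeLC and 708 to 965 CPM in CDKO iMeLC, and 7 of 7 had positive log2 fold changes (median 1.253), with 4 at an unadjusted p under 0.05 and 0 called by edgeR. The largest of these were LUM, at 0.331 CPM in CTRL iMeLC and 2.27 CPM in CDKO iMeLC, and COL3A1, at 24 and 106 CPM. The more abundant COL1A1 stood at 306 and 379 CPM, COL1A2 at 160 and 199 CPM and THY1 at 125 and 128 CPM. The 6 amnion or trophectoderm markers summed to 3.81 to 12.3 CPM in CTRL iMeLC and 7.67 to 14.2 CPM in CDKO iMeLC. In hESC the primitive streak markers summed to 26.6 to 58.2 CPM in CTRL and 66.4 to 208 CPM in CDKO, beside the higher DAZL, DDX4, SYCP2 and SYCE1 counts there. All 5 streak markers tested had positive log2 fold changes, and edgeR called 1 of them, NODAL (1.34, adjusted p = 0.0374). MESP1 was too low to test and had means of 0.808 CPM in CTRL hESC and 0.517 CPM in CDKO hESC. The part of any of these cell types in the differences was not tested.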

How the data were processed

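The deposited values are raw whole-number counts of reads for each gene symbol, with a separate table for each stage. FastQC, cutadapt, edgeR and GRCh38 were used per the submitters' processing notes, and the RNeasy micro and SMARTer Stranded Total RNA kits per the labels' protocols. The sources used here do not name an aligner, counting program, annotation or strand option, so counts of overlapping genes are uncertain. Depth was 12517593 to 18855099 counts per library in hESC and 52121702 to 109479071 in iMeLC. Replicates were compared by a chi-square test and gave 4.04 to 181 per gene, so none was treated as a repeat of another.

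CDKO against CTRL was tested within each stage on 6 libraries, and the stage and interaction comparisons over 12, with edgeR 4.0.16 under R 4.3.3 (quasi-likelihood, two-sided, TMM, filterByExpr with its minimum count of 10), adjusted by Benjamini-Hochberg over all genes tested at a threshold of 0.05. CPM used TMM-scaled library sizes, while count ratios and limits of 3 counts used total counts. Intervals on log2 fold changes are 95% intervals from the same test, those on count ratios are exact conditional binomial and those on limits are 3 counts. Exon lengths and overlaps came from GENCODE release 29 and promoter windows from RefSeq (GRCh38.p14). On simulated counts with the spread of the real ones, 2-fold changes were recovered for 70.4% of changed genes in hESC (16889 genes) and 42.7% in iMeLC (19515 genes), with 10.9% and 10.2% of calls false. The changed genes were drawn from all genes passing the filter, so these rates do not describe genes as low as most members.

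The members and lists were chosen with earlier results of these data known. Named were all 10 members, TET1 and, per list and genotype comparison, every called gene or else up to 4 with the smallest adjusted p. MEIOSIN, C9orf84 and TDRD12 had no row under those symbols. Alternatives were DESeq2 1.42.0, its size factors, no filter, at least 1 CPM in 3 libraries, other library sets and leaving out each library. How many members separate without overlap was also recounted without each library, an alternative chosen after seeing the data.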

Additional observations from a re-analysis of the deposited data

How the results depend on the processing

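No call of a member in a genotype comparison was made in edgeR with either normalisation, with at least 1 CPM in 3 libraries or in the fit over 12 libraries. In hESC 2 members passed with DESeq2 and 2 with no filter (DAZL and STAG3 both times), and 0 to 1 without 1 library. DESeq2 and the run with no filter also raised the calls over all genes, as counted in the next paragraph. In iMeLC 1 passed with DESeq2 and 0 to 1 without 1 library. The interaction kept 0 members under all 16 alternatives. In the stage comparison in CTRL 0 to 2 members passed without 1 library, and in CDKO 5 with no filter and 1 to 6 without 1 library. Members whose libraries did not overlap numbered 4 to 6 (CDKO above, hESC), 0 to 2 (CDKO below, hESC), 0 to 1 (CDKO above, iMeLC) and 4 to 5 (CDKO below, iMeLC) without 1 library. Leaving out a library cannot make separated groups overlap. These numbers could therefore only stay or rise, and the recount does not test the separation.

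Over all genes, calls in hESC moved from 226 to 618 with DESeq2, both among the same 17222 genes. They moved to 1228 with no filter, 72 in the fit over 12 libraries and 5 to 493 without 1 library. In iMeLC calls moved from 69 to 1566 with DESeq2, both among the same 19999 genes. They moved to 428 with no filter, 1310 in the fit over 12 libraries and 15 to 2646 without 1 library. In the interaction they moved from 4 to 210 with DESeq2, 29 with no filter and 1 to 439 without 1 library. Stage counts ranged from 8527 to 9925 in CTRL and 10817 to 12577 in CDKO without 1 library. The cause was not tested.

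Directions reversed only in values that were not called. In hESC TEX15 ranged from -0.01 (without CDKO hESC 1) to 0.21 when 1 library was left out. In iMeLC DAZL ranged from -0.43 (without CTRL1109) to 1.9, with -0.31 without CTRL1101 and -0.03 without CDKO1105, and TEX14 from -0.26 to 0.33 (without CTRL1101), with 0.08 without CDKO1102 and 0.02 without CDKO1105. In the CTRL stage comparison, leaving out CTRL hESC 1 gave the upper ends of the ranges of SYCP2 (-0.33 to 0.35), SYCP3 (-1.14 to 0.08) and TEX15 (-0.2 to 0.02). In CDKO SYCP2 ranged from -0.65 to 0.14 (without CDKO hESC 2). In the interaction SYCP2 ranged from -0.68 to 0.28 (without CDKO hESC 2), with 0.03 without CTRL hESC 3, and TEX14 from -0.39 to 0.19 (without CTRL1101). Without CTRL1106 the interaction of DAZL was 0.88 (range from -1.45) and that of STAG3 0.08 (range from -0.61).

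No paired analysis was possible because the hESC columns name no line, so libraries of the same line cannot be matched between the stages, and the genotypes share no line number; the planned fit with the line as a block was not run. In hESC 6 of the 10 members had under 20 counts in each group, which limits the precision of their values there.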
